A study of Mus musculus with 6 samples.

Results

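Palmd and Zfp365 are 2 genes whose RNA fell to a few percent of its level in mouse pancreatic tumour organoids that had lost the wild-type Trp53 allele. They are 2 of the 53379 genes in the deposited count table, and were matched by symbol in the deposited normalized table of 23525 genes. Both were chosen by their low values in exactly this contrast, so their levels and fold changes are descriptions and carry no test.

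Total RNA was sequenced from 6 organoid cultures of KPC tumours of strain C57/Bl6, grown in matrigel domes in complete mouse organoid medium. The cultures came from 3 organoid lines, numbered 6, 23 and 34 in the titles, and each line gave 1 library per genotype. The heterozygous group (n = 3) is labelled Trp53LSLR172H/+ and Pdx1-Cre, and the loss of heterozygosity (LOH) group (n = 3) Trp53LSLR172H/- and Pdx1-Cre. Both groups therefore carry the R172H allele of Trp53 and a Cre recombinase driven by the Pdx1 promoter, which is active in the pancreatic epithelium. The ages of the mice are not given. In their descriptions the LOH libraries carry the ending "Nut", whose meaning no label gives and which cannot be told apart from genotype. No label says that the lines came from separate animals, so p-values measure the spread between these libraries.

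Palmd encodes palmdelphin, a cytosolic protein of the paralemmin family. Paralemmins are known for their part in membrane dynamics and cell shape, and palmdelphin is best known in muscle, endothelium and heart valves. Zfp365 encodes a zinc finger protein, named ZNF365 in humans, which has been described at the centrosome and in the stability of chromosomal fragile sites and telomeres. Both genes have been described as induced by p53, the transcription factor that Trp53 encodes, which stops the cell cycle or starts cell death after damage. The R172H change alters the DNA-binding domain of p53.

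The promoter of Zfp365 is shown because p53 acts through paired half-sites in DNA. The RefSeq window (GRCm38.p6) is chr10:67912613-67912912 on the minus strand, from 250 bases before the annotated start to 50 bases from it, and 61.3% of its 300 bases are G or C. Capitals mark the stretches that match paired p53 half-sites with up to 2 mismatches.

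Zfp365: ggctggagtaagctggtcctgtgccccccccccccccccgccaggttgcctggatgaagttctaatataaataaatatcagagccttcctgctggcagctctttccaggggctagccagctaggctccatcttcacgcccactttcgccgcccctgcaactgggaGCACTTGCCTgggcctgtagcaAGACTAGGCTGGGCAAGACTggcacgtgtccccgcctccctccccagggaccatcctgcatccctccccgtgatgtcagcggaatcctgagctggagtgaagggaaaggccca

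No exact p53 half-site lay in this window on either strand, against 8.36% of 32851 RefSeq promoter windows of the same length that held at least 1. Allowing 2 mismatches over 20 positions and a spacer of 0 to 13 bases, 2 overlapping paired matches were found. One is AGACTAGGCTGGGCAAGACT, with no spacer, beginning 63 bases before the start and with 1 mismatch in each half-site. The other joins GCACTTGCCT, beginning 85 bases before the start, to the first half-site of that match across a spacer of 12 bases. Such a match was present in 10.1% of the promoter windows. The window also held TATAAA at 1 position, as 13.6% of windows did when both strands were searched, and CACGTG at 1 position, as 7.15% did. Those last motifs were picked after the sequence was seen. A match is a description of letters and not evidence of binding. The promoter of Palmd was not analysed here.

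The files were checked first against the genotypes. Total expected counts, the authors' estimated reads per gene, ran from 13680458 to 27917277 per library, and 3 counts correspond to 0.1 to 0.223 CPM (counts scaled to TMM-adjusted library size). Trp53, whose gene counts do not separate the alleles, measured 77.3, 76.3 and 86.5 CPM in heterozygous lines 6, 23 and 34, and 73.5, 52.5 and 47.4 CPM after LOH (log2 fold change -0.47, edgeR adjusted p 0.227, and -0.72 with 0.0368 without LOH line 6). In LOH line 6 it lay just under the heterozygous range. Leaving out LOH line 6 raised the number of genes called at an edgeR adjusted p under 0.05 from 757 to 2449 of those tested, so values without that library are given where they change a call or move by over a factor of 1.5. Leaving out any single heterozygous library gave 0 called genes in edgeR, with 2272 to 2966 at an unadjusted p under 0.05.

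Palmd (ENSMUSG00000033377.14, GRCm38 chr3:116918258-116968987, minus strand) was counted 536, 186 and 397 times in heterozygous lines 6, 23 and 34, which is 17.9, 13.8 and 13.3 CPM. After LOH the same lines had 17, 23 and 16 counts, or 0.99, 0.868 and 0.745 CPM. Every LOH library lay far below every heterozygous one, and the lowest heterozygous value was 13.4 times the highest LOH value. Of all tested genes 16.5% had every LOH library under every heterozygous one, and nothing is read from this for the genes chosen. Its mean was 14.98 ± 2.53 CPM in the heterozygous and 0.868 ± 0.122 CPM in the LOH group (SD, n = 3 each), so 5.79% of the heterozygous level was left. The log2 fold change was -4.11 (SE 0.29), and -4.25 without LOH line 6. In the heterozygous libraries Palmd was a gene of middling level, above 48.7% to 53.9% of the 14537 tested genes by CPM, and in the LOH libraries it was above 10.7% to 14.5% of them.

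Zfp365 (ENSMUSG00000037855.15, GRCm38 chr10:67886103-67912662, minus strand) was counted 356, 128 and 286 times in heterozygous lines 6, 23 and 34, which is 11.9, 9.5 and 9.55 CPM. Its LOH libraries had 7, 17 and 8 counts, or 0.407, 0.642 and 0.373 CPM. The groups again stood apart, with the lowest heterozygous value 14.8 times the highest LOH value. The mean went from 10.3 ± 1.36 to 0.474 ± 0.146 CPM (SD, n = 3 each), which leaves 4.6% of the heterozygous level. The log2 fold change was -4.41 (SE 0.35), and -4.36 without LOH line 6. In the LOH libraries Zfp365 was above 4.26% to 7.81% of the tested genes.

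**Figure D1:**
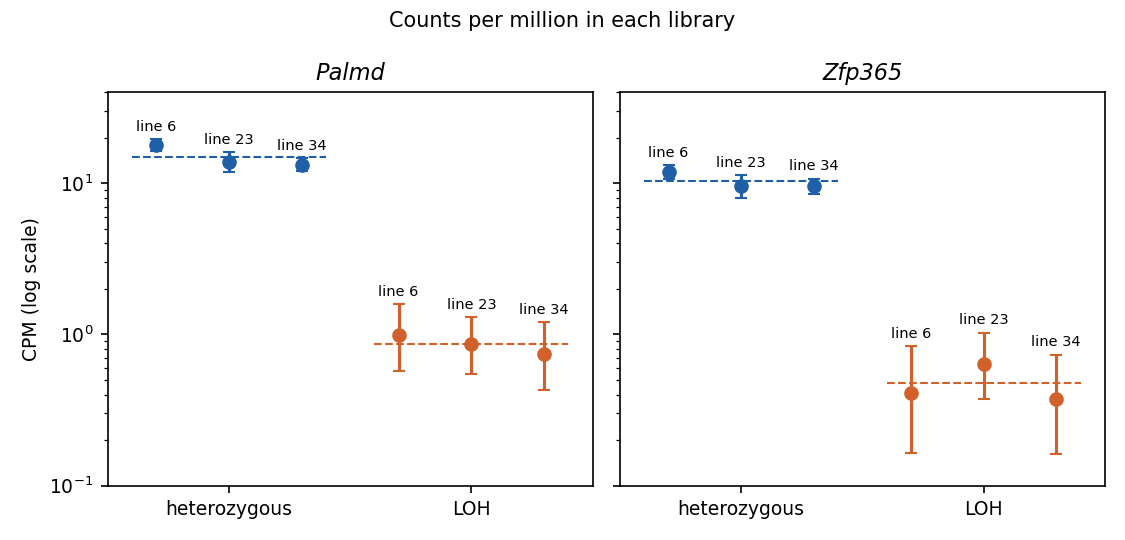
CPM on a log axis for Palmd (left) and Zfp365 (right) in the 6 libraries, heterozygous in blue and LOH in orange. Bars are exact Poisson 95% intervals of each count, which cover counting error only, and dashed lines are group means. All heterozygous points lie between 9.5 and 17.9 CPM and all LOH points under 1 CPM.

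Both genes were among the 241 lower genes that edgeR called among 14537 (1.66%), which their choice fixes and from which nothing is read. The block by organoid line, used as a second fit, gave 36 lower genes (0.248%) and 177 higher (1.22%), or 1.47% in all. In both the highest library was heterozygous line 6. For Palmd its Poisson 95% interval, 16.4 to 19.5 CPM, did not reach those of heterozygous lines 23 and 34, at 11.9 to 15.9 and 12.0 to 14.6 CPM. For Zfp365 the interval of line 6, 10.7 to 13.2 CPM, met those of lines 23 and 34, at 7.92 to 11.3 and 8.47 to 10.7 CPM. The intervals of heterozygous lines 23 and 34 overlapped in both genes. Within the LOH group the Poisson intervals of the 3 lines overlapped in both genes, so an order of the LOH lines cannot be read at this depth. The whole LOH group rests on 56 counts for Palmd and 32 counts for Zfp365, against 1119 and 770 in the heterozygous group.

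The fall had much the same size in every line for Palmd. Its heterozygous level was 18.1-fold the LOH level in line 6, 15.9-fold in line 23 and 17.8-fold in line 34, with exact binomial 95% counting intervals of 11.2 to 31.3, 10.3 to 25.7 and 10.8 to 31.4. Zfp365 varied more, at 29.1-fold in line 6, 14.8-fold in line 23 and 25.6-fold in line 34, with intervals of 14 to 73, 8.89 to 26.2 and 12.8 to 59.9. These intervals overlap, and line 23 has the smallest fold in both genes. Across the heterozygous libraries the ratio of Palmd to Zfp365 counts was nearly constant, at 1.51, 1.45 and 1.39 in lines 6, 23 and 34. In the LOH libraries it was 2.43, 1.35 and 2.0.

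The depth of the fall is set here beside that of other genes, with bounds picked after the values were seen. Among 9747 tested genes whose heterozygous mean reached 5 CPM, 17 were at least 16-fold lower in the LOH mean. In the other direction 2 were at least 16-fold higher, Capg and Prkg2, named after their values were seen. The bound on the heterozygous mean leaves out genes that rose from a lower level, so the numbers in the 2 directions cannot be compared. Genes left out in this way, also named after their values were seen, include Prom2 (1.58 to 28.6 CPM) and Gpa33 (3.2 to 89.6 CPM). By log2 fold change Zfp365 ranked 11 and Palmd ranked 17 from the lowest of the 9747. Among all 14537 tested genes they ranked 29 and 38. Depth and rank follow from how the 2 genes were chosen, and nothing is read from them.

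**Figure D2:**
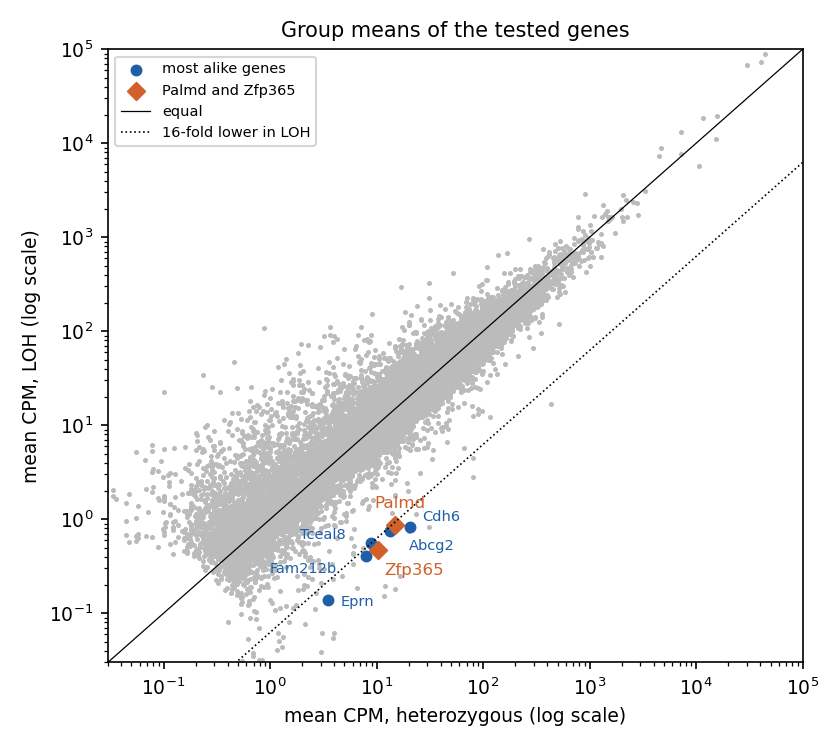
Mean CPM of the tested genes in the LOH libraries (vertical, log axis) against the heterozygous libraries (horizontal, log axis). Grey points are genes, orange diamonds Palmd and Zfp365, and blue points the genes most like them in profile. Genes with a mean outside the axes are not drawn. Palmd and Zfp365 lie just under the dotted line of a 16-fold lower level.

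The transcript tables show which annotated forms made up these counts. Palmd-201, the full coding transcript of 8 exons and 2433 bases, took 89.6% to 95.3% of the Palmd counts in the heterozygous libraries. Its expected counts were 480.43, 176.67 and 378.24 in heterozygous lines 6, 23 and 34, and 16, 22.9 and 13.5 in the LOH libraries. It stayed the main form, with 93.6% of the LOH counts against 92.5% of the heterozygous ones. Palmd-204, a single-exon retained intron form that starts 244 bases downstream, had 51.2 counts summed over the heterozygous libraries and 1 count over the LOH libraries. Palmd-202, which ends in a longer alternative last exon, had 17.6 and 0 counts. Palmd-203, a short form inside the exons of Palmd-201, had 14.8 and 2.59 counts. All 4 forms thus had fewer counts in the LOH sum.

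Zfp365 was made almost wholly of Zfp365-201, the coding transcript of 5 exons and 4259 bases, with 97.1% to 100% of the counts in the heterozygous libraries. Its expected counts were 345.79, 128 and 286 there, and 6.51, 4.17 and 8 in the LOH libraries of lines 6, 23 and 34. In LOH line 23 the largest part of the 17 counts, 11.5 of them, was given to Zfp365-203, a noncoding transcript that starts 11325 bases downstream of the coding one. Zfp365-203 had 0 counts in each of the other 5 libraries, including the heterozygous library of line 6 with 356 counts on the gene. It shares 3143 of its 3276 bases with exons of Zfp365-201, and 133 bases lie outside them, so the division between the forms depends on few reads. By the coding transcript alone LOH line 23 was the lowest library, while by the gene count it was the highest LOH library.

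**Figure D3:**
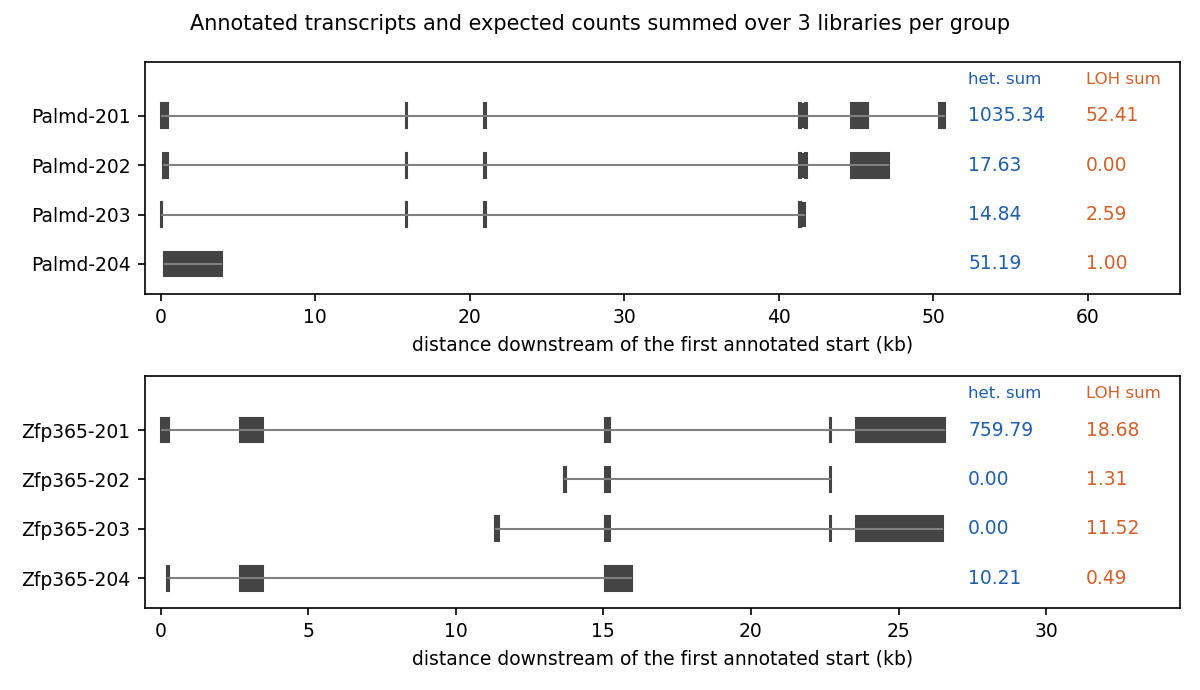
Exons (boxes) of the annotated transcripts of Palmd and Zfp365 along the distance from the first annotated start in kilobases. The numbers are expected counts summed over 3 heterozygous (blue) and 3 LOH (orange) libraries. Zfp365-203 and Zfp365-202 have counts in the LOH sum and 0 in the heterozygous sum.

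Levels of the genes can be compared only per length, for which the deposited TPM values (abundance scaled by transcript length and depth) serve. Palmd had 11.5, 6.67 and 6.21 TPM and Zfp365 3.89, 2.4 and 2.53 TPM in heterozygous lines 6, 23 and 34, so that the Palmd level was 2.45 to 2.95 times that of Zfp365. In the LOH libraries gene TPM was 0.4, 0.33 and 0.55 for Palmd and 0.1, 0.46 and 0.07 for Zfp365. These last values lean on short transcripts. In LOH line 34, Palmd-203 of 435 bases took 60% of the summed transcript TPM from 2.53 expected counts, and in LOH line 23, Zfp365-202 of 292 bases took 67.4% from 1.31 expected counts. The main transcripts alone had 0.39, 0.33 and 0.22 TPM for Palmd-201 and 0.09, 0.03 and 0.07 TPM for Zfp365-201, so that Palmd-201 was the higher in each LOH library.

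Reads from overlapping genes were few. The annotation places 4930455H04Rik across the Palmd start on the opposite strand, and it had 0 counts in all 6 libraries, which allows up to 0.1 to 0.223 CPM each. Gm42892 lies inside Palmd on the same strand and had 13, 2 and 2 counts in heterozygous lines 6, 23 and 34 and 0, 1 and 0 counts after LOH. No annotated gene overlaps Zfp365.

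The tested genes that flank them on the chromosome had log2 fold changes from -1.06 to 2.22, smaller in size than those of Palmd and Zfp365. Palmd and Zfp365 were chosen for their deep fall in this contrast, so nothing is read from the comparison of size. The 5 nearest tested genes on each side gave 20 genes, of which edgeR called 0, where 5.21% of all genes were called. At an unadjusted p under 0.05 there were 5, where 25.3% of all tested genes were. DESeq2 called 4, all lower (Ado, Cdk1, Rtkn2 and Snx7), where it called 8.38% of all genes and 3.13% lower. Limma on log2(TPM + 1) called the same 4 among 15 of the genes, where it called 15% of all genes and 12.7% lower. Next to Palmd lies Frrs1, a ferric chelate reductase gene, which had 105.4 ± 14 CPM in the heterozygous and 82.0 ± 36.1 CPM in the LOH libraries (SD, n = 3 each; log2 fold change -0.36, edgeR adjusted p 0.505). That value was -0.77 without LOH line 23 and -0.13 without LOH line 34. On the other side Snx7, a sorting nexin, had a log2 fold change of -0.92 (edgeR adjusted p 0.0826). Around Zfp365, Ado, a thiol dioxygenase gene, had 48.9 ± 3.85 and 30.6 ± 4.36 CPM (SD, n = 3 each; log2 fold change -0.68, edgeR adjusted p 0.0816). Rtkn2 had 2.9 ± 0.13 and 1.39 ± 0.192 CPM (SD, n = 3 each; log2 fold change -1.06, edgeR adjusted p 0.1). Cdk1, the kinase that drives mitosis, had a log2 fold change of -0.97 (edgeR adjusted p 0.0761), and like Snx7, Ado and Rtkn2 it was lower in every line, which Frrs1 was not. The lowest log2 fold change among the neighbours was thus -1.06, for Rtkn2. The highest was 2.22, for Gm42893, with means of 0.241 and 1.16 CPM (edgeR adjusted p 0.212). Single lines ranged further, as in Gm42664 with -3.39, 3.37 and 2.65 in lines 6, 23 and 34. Without LOH line 34 edgeR called 1 of the 20 genes, Cdk1, with a log2 fold change of -1.21, where 5.27% of all genes were called.

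**Figure D4:**
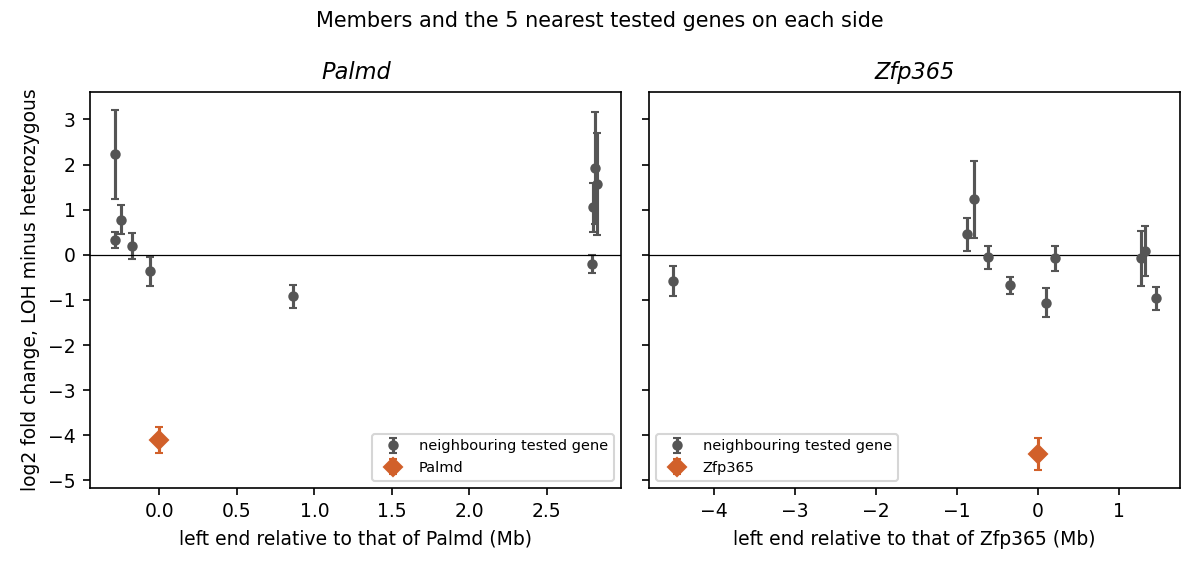
Log2 fold change, LOH minus heterozygous, with its standard error, for Palmd (left) and Zfp365 (right) as orange diamonds at 0 and for the 5 nearest tested genes on each side in grey, by the distance between the left ends of the genes in megabases. The grey points lie between -1.06 and 2.22.

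The other paralemmins had no difference beyond the spread between libraries. Palm, the founding member of the family, had 5.34 ± 0.546 CPM in the heterozygous and 6.3 ± 4.07 CPM in the LOH libraries (SD, n = 3 each; log2 fold change 0.24, SE 0.46, edgeR adjusted p 0.774). It had 3.32, 4.64 and 10.9 CPM in LOH lines 6, 23 and 34, so that line 34 stood above the heterozygous range of 5.01 to 5.97 CPM and lines 6 and 23 below it. Palm3 had 11.9 ± 1.48 and 10.7 ± 6.29 CPM (SD, n = 3 each; log2 fold change -0.16, SE 0.49, edgeR adjusted p 0.863), and LOH line 34, at 3.73 CPM, was its lowest library. The sign of both values turned without LOH line 34, to -0.43 for Palm and 0.24 for Palm3. Palm2 was not tested, with 0, 0 and 3 counts in heterozygous lines 6, 23 and 34 and 2, 0 and 17 counts after LOH. Of the 2 tested genes 0 were called by edgeR, DESeq2 or limma, and 0 had an unadjusted p under 0.05.

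Among genes that work where the Zfp365 protein has been described, edgeR called 0 centrosome genes, 1 fork gene and 0 telomere genes. Of 23 tested centrosome genes of 24 listed (gamma-tubulin complex members, Disc1 and Ndel1 partners, centriole and pericentriolar proteins), 17 had a log2 fold change below 0, where 46% of all tested genes did. Their median was -0.23 against 0.06 over all tested genes, and in lines 6, 23 and 34 it was -0.41, 0.04 and -0.38. Beside the 0 calls of edgeR, 7 of 23 had an unadjusted p under 0.05, as 25.3% of all tested genes did. DESeq2 called 3, with Cdk5rap2 and Pcnt lower and Akap9 higher (named after its value was seen), where it called 8.38% of all genes. Limma on log2(TPM + 1) called 5 of 22, all lower, where it called 15% of all genes. The smallest p belonged to Cdk5rap2, a pericentriolar scaffold, at 34.8 ± 5.5 and 16.2 ± 5.68 CPM (SD, n = 3 each; log2 fold change -1.1, edgeR adjusted p 0.0771). Pcnt, the pericentrin scaffold, had a log2 fold change of -0.66 (edgeR adjusted p 0.0785), and Tubg2, a gamma-tubulin, one of 1.38 (edgeR adjusted p 0.103). Disc1, a known partner of the protein, was not tested, with 0 to 5 counts per library.

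Of 32 genes of replication fork protection and fragile site stability, all tested, edgeR called 0 higher and 1 lower, where 3.55% and 1.66% of all genes were called. The called gene was Clspn, which encodes the checkpoint adaptor claspin. It fell from 48.3 ± 4.82 to 21.8 ± 2.09 CPM (SD, n = 3 each; log2 fold change -1.15, SE 0.18, edgeR adjusted p 0.0246). Lines 6, 23 and 34 had differences of -1.07, -1.12 and -1.25 on the log2 scale. It did not pass with the block by line (edgeR adjusted p 0.0852), nor without any 1 heterozygous library (0.0983 to 0.147). The list had a median of -0.45 with 25 of 32 genes below 0. Without LOH line 6, 13 of the 32 were called, 12 of them lower, where 8.68% of all genes were called lower and 7.5% higher. Of 17 telomere genes (shelterin and telomerase), 10 were below 0, with a median of -0.19. None was called by edgeR (0 of 17), with 3 at an unadjusted p under 0.05, where 25.3% of all tested genes were. DESeq2 called 2 (Dkc1 and Nhp2), where it called 8.38% of all genes. Limma on log2(TPM + 1) called 3, where it called 15% of all genes. Dkc1, the dyskerin subunit of telomerase, had the smallest p (log2 fold change -1.06, edgeR adjusted p 0.0849), followed by Nhp2 (-1.0, 0.105) and Gar1 (-0.81, 0.197), which are partners of dyskerin. Without LOH line 6, 4 of the 17 were called, all lower, against the same 8.68% of all genes. Dkc1, Nhp2 and Gar1 were among them, with log2 fold changes of -1.43, -1.44 and -1.25.

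Among other p53 target genes the direction was mainly down, and the size mostly smaller than in Palmd and Zfp365. Those 2 genes were chosen for their deep fall in this contrast, so nothing is read from the comparison of size. Of 49 tested genes of 50 listed, 35 were below 0, with a median log2 fold change of -0.63 against 0.06 over all tested genes. edgeR called 14 lower and 1 higher (Def6, named after its value was seen), against 1.66% and 3.55% of all genes. The block by line called 5, all lower, against 0.248% of all genes. These were Plk2, Phlda3, Zmat3, Eda2r and Dram1, named after the calls were seen. Of them Dram1 was called with the block alone (edgeR adjusted p 0.0492, and 0.0958 without the block). Without any 1 heterozygous library 0 were called, with 24 at an unadjusted p under 0.05 in each case. Without LOH line 23, 9 were called, all lower, where 0.916% of all genes were. Without LOH line 6, 22 were called, 19 of them lower, where 8.68% of all genes were called lower and 7.5% higher. Some of these targets were known to be lower in these data when the list was drawn up, so the count is not independent evidence of a direction.

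The called targets with the smallest p were Plk2, Phlda3 and Bax. Plk2, a stress-induced polo-like kinase, fell from 93.2 ± 7.95 to 24.2 ± 4.07 CPM (SD, n = 3 each; log2 fold change -1.94, SE 0.2, edgeR adjusted p 0.0122). Phlda3, a repressor of AKT signalling, fell from 33.1 ± 2.89 to 4.4 ± 1.86 CPM (SD, n = 3 each; log2 fold change -2.9, SE 0.36, edgeR adjusted p 0.0164). Bax, which permeabilizes mitochondria in apoptosis, fell from 90.3 ± 6.01 to 24.7 ± 6.74 CPM (SD, n = 3 each; log2 fold change -1.87, SE 0.24, edgeR adjusted p 0.0164), and did not pass with the block by line (0.0534). Of the classical targets, Ccng1 had a log2 fold change of -2.17 and Mdm2 of -1.26, both called by edgeR without the block alone. Cdkn1a, the cell cycle inhibitor p21, had a log2 fold change of -0.61 (edgeR adjusted p 0.339). LOH line 6, at 8.03 CPM against 21.7 and 19 CPM in LOH lines 23 and 34, was its lowest library, and without it the value was -0.32.

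Only 2 of the 49 targets had a lower log2 fold change than Palmd and Zfp365, namely Eda2r and Mgmt, which are named because of their values. The rank of Palmd and Zfp365 follows from how they were chosen, and nothing is read from it. Eda2r, a death-domain receptor, had 488, 183 and 449 counts in heterozygous and 0, 2 and 10 in LOH lines 6, 23 and 34. Mgmt, a DNA repair enzyme, had 83, 42 and 92 counts and then 2, 0 and 0. Palmd and Zfp365 had counts above 0 in every LOH library, as had Tceal8, Abcg2, Fam212b and Cdh6, described below. Mgmt began from fewer counts, and in LOH line 34 Eda2r had more counts (10) than Zfp365 (8).

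**Figure D5:**
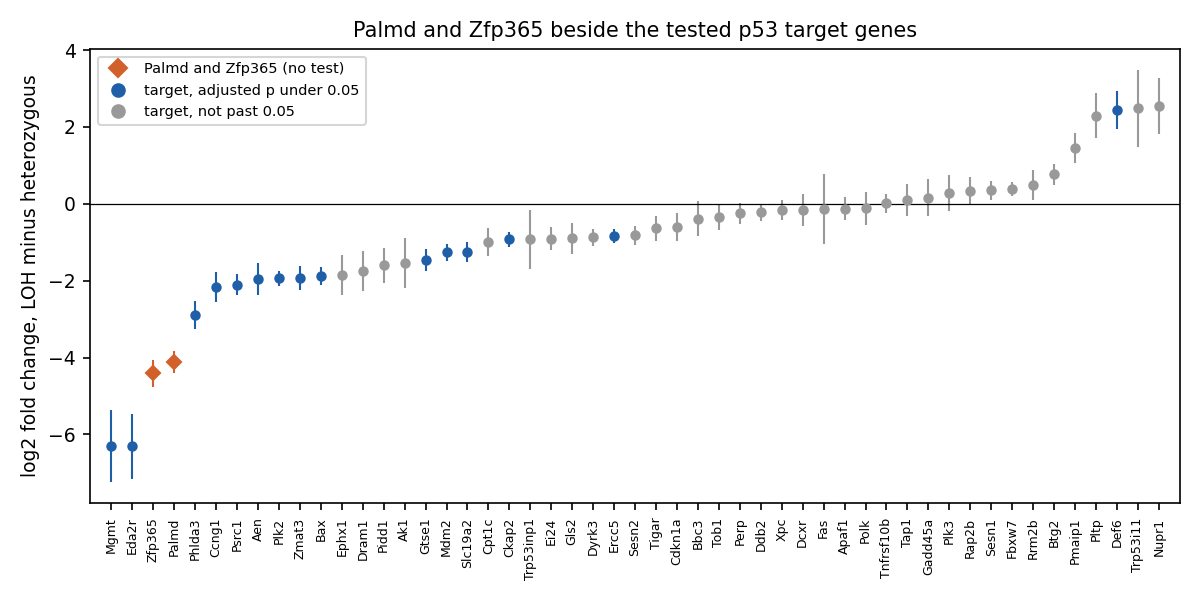
Log2 fold change, LOH minus heterozygous, with its standard error, for 49 tested p53 target genes (circles, blue where the edgeR adjusted p is under 0.05) and for Palmd and Zfp365 (orange diamonds), ordered by value. Mgmt and Eda2r lie below Zfp365 and Palmd, and the other targets above them.

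The genes most like each of them in profile were sought by the root mean square distance between centred log2 CPM values over the 6 libraries, among the 12678 tested genes whose mean reached 1 CPM. For Palmd the nearest was Eprn, a long noncoding RNA, at a distance of 0.067 (Pearson r = 0.999, a description over 6 libraries in 2 groups), followed by Zfp365 (0.253), Tceal8 (0.274), Abcg2 (0.296) and Fam212b (0.3). For Zfp365 the order was Eprn (0.242), Palmd (0.253), Tceal8 (0.382), Abcg2 (0.426) and Cdh6 (0.435). Palmd and Zfp365 were thus each the second nearest gene to the other, with r = 0.995. Both were chosen by their fall between these groups, so their nearness follows from the choice and nothing is read from it. Since distances are dominated by the step between the groups, any gene with a step of the same size comes out close. The log2 CPM values carry a prior count of 2, which makes a fall to few counts look smaller. The fitted log2 fold changes were -4.61 (SE 0.45) for Eprn and -4.11 (SE 0.29) for Palmd, so these 2 steps need not be as alike as the distance shows.

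Eprn had 128, 42 and 93 counts in heterozygous lines 6, 23 and 34 and 3, 4 and 2 counts in the LOH lines, so its LOH level is at the edge of detection. Abcg2, a drug efflux transporter, had 14.1, 13.8 and 12.4 CPM in the heterozygous and 1.16, 0.68 and 0.419 CPM in the LOH libraries. Cdh6, a cadherin of kidney and other epithelia, had 35.7, 10.8 and 15.1 CPM and then 0.873, 1.06 and 0.559 CPM. Like Palmd and Zfp365, Tceal8 was highest in heterozygous line 6, at 13.3 CPM against 6.53 and 6.84 CPM in lines 23 and 34. Fam212b was not, with 7.31, 8.24 and 8.14 CPM.

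Palmd is known from muscle and endothelium and Zfp365 from neural tissue, and in bulk RNA fewer cells of a type and less RNA per cell cannot be told apart, so markers of other cell types were summed. The cultures were epithelial in both groups, with 10 epithelial markers summing to 5307 to 6131 CPM in heterozygous and 5210.5 to 11473 CPM in LOH libraries. Neural and glial markers summed to 0.742 to 1.3 CPM in the heterozygous libraries and to 3.06 to 10.4 CPM in the LOH libraries. Of these 10 markers 7 stayed under 1 CPM in every library, Gap43 was at 0, and Snap25 was called higher by edgeR, though not with the block by line. Endothelial markers summed to 0.594 to 1.17 and 1.28 to 3.49 CPM, with 8 of 10 under 1 CPM in every library and Emcn and Erg at 0. Muscle markers summed to 4.27 to 5.3 and 2.62 to 26.2 CPM, with Mylk the most abundant, and 7 of 8 stayed under 1 CPM in every library. Fibroblast markers summed to at most 0.133 CPM in the heterozygous and 0.931 CPM in the LOH libraries, with Col3a1 and Thy1 at 0. Leukocyte markers summed to 46.2 to 49.3 and 23 to 48.2 CPM, mostly from Cd14, with 6 of 8 under 1 CPM in every library and Lyz2 at 0. Acinar markers summed to 0.601 to 0.89 and 0.868 to 2.44 CPM, with 7 of 8 under 1 CPM and Pnlip and Ptf1a at 0. Endocrine markers summed to at most 0.371 and 0.175 CPM, with Ins1, Ins2, Sst and Neurod1 at 0. The CPM of marker genes does not tell how much Palmd or Zfp365 RNA such cells would add. The part of these markers in the values of Palmd and Zfp365 was not tested.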

How the data were processed

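Each library has tables of genes and of transcripts in RSEM's column layout, per the file headers, and the series has joint tables. The expected count is the authors' estimate of the reads from a gene or transcript. The deposited TPM is that abundance scaled by length and depth. The deposited normalized table holds a signal, in which 100% of the values above 0 equalled the truncated expected count over 1 size factor per library (relative tolerance 1e-06). It was used to name genes. The submitters' processing notes list FastQC 0.11.5, STAR 2.5.2b, RSEM 1.3.0, DESeq2 1.44.0 and build GRCm38.p5, without their roles. The gene set was GENCODE mouse release 16, per the file names. The strand setting is not given in the sources used here. Coordinates are from GENCODE mouse release 21 (GRCm38), which held 53274 of 53379 gene identifiers. Promoter sequence is from RefSeq (GRCm38.p6), which matched 1 of the 2 genes in the table used.

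Libraries were grouped by title, with the line number as the replicate. After rounding, genes were filtered with filterByExpr, scaled by TMM and compared with edgeR 4.0.16 (R 4.3.3; quasi-likelihood F test). P-values of the 14537 genes were adjusted by Benjamini-Hochberg, and 0.05 was the threshold. Log2 ratios per line used a prior count of 2. The standard error is the log2 fold change over the square root of F. Alternatives were RLE scaling, no filter, DESeq2 1.42.0, limma 3.58.1 on log2(TPM + 1) or log2(TPM + 0.1) where 3 libraries reached a TPM of 1, the line as a block, and each library left out. The scripts were tested on simulated data.

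The titles give both genotypes of a number as 1 organoid line, which pairs them. Deviations from the group means correlated across genes at -0.3, 0.01 and 0.29 within lines 6, 23 and 34. The block is given where it changed a call.

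The 2 genes and the gene lists were chosen with earlier results of these data known. Named by rule were the other paralemmins, overlapping genes, 5 tested neighbours per side, the 5 nearest profiles per gene, and of each list the called genes, or the 3 smallest p where none or more than 8 were called. Trp53, Cdkn1a, Mdm2 and Ccng1 were checks of genotype. Neighbours not singled out are given by their range. An engineered allele that all libraries carry and some genes are not reported here. Tables and figures used Python 3.11.15. Intervals and limits on 0 counts (3 counts) cover counting error only.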

Additional observations from a re-analysis of the deposited data

Results flagged for a closer look

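Some results moved in opposite directions in the 3 organoid lines. Each line has 1 library per genotype, so these differences between lines were not tested. Both signs occurred in 15 of the 46 results set side by side, and Palmd and Zfp365 were not among them. The median of the 20 chromosomal neighbours spanned 1.05 log2 units from lowest to highest line, with -0.67, 0.38 and 0.17 in lines 6, 23 and 34, and the centrosome median spanned 0.45. The span was 1.95 for Palm (-0.83, -0.12 and 1.11) and 2.3 for Palm3 (0.63, -0.12 and -1.67).

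Among the neighbours of Palmd the span was 1.6 for Slc35a3, 1.06 for Frrs1, 3.04 for Ptbp2, 5.99 for Gm43300 and 6.75 for Gm42664. Among the neighbours of Zfp365 it was 1.59 for Reep3, 5.21 for Jmjd1c, 0.73 for Nrbf2, 1.2 for Arid5b, 1.75 for Rhobtb1 and 1.38 for A930033H14Rik. Jmjd1c, a histone demethylase gene, went from -2.5 in line 6 to 2.71 in line 23 and 2.35 in line 34, the widest span of the protein-coding genes among the 15. Line 6 was below 0 and lines 23 and 34 above 0 also for Reep3 and Rhobtb1, and for Ptbp2, Gm43300, Gm42664 and Slc35a3.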

How the results depend on the processing

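Palmd and Zfp365 were lower in the LOH libraries under every alternative run. Their log2 fold changes were -3.93 and -3.48 on log2(TPM + 0.1) and -2.63 and -1.7 on log2(TPM + 1), where the pseudocount exceeds their LOH level and the median of all genes was -0.35. With 1 library left out, Palmd ran from -4.25 to -3.98 and Zfp365 from -4.71 to -4.26, and with the line as a block they were -4.1 and -4.44. Genes called numbered 757, against 2266 with DESeq2 (846 lower), 1790 with limma on TPM (1508 lower), 213 with the block, and 0 to 2449 with 1 library left out. As shares of the genes tested these are 5.21%, 8.38%, 15%, 1.47% and 0% to 16.2%, in that order. The calls in each list are to be read beside these shares. For the p53 targets 15 calls became 24 with DESeq2, 5 with the block and 0 to 22 with 1 library left out. For the fork and fragile site genes 1 call became 6 with DESeq2, 7 with limma, 0 with the block and 0 to 13. The 0 calls became 3 with DESeq2 and 5 with limma for centrosome genes, 2, 3 and up to 4 (from 0) for telomere genes with DESeq2, limma and 1 library left out, and 4, 4 and 0 to 1 for the neighbours. Reversed signs on log2(TPM + 1) were -0.0945 for Mfsd14a, -0.46 for Palm and -0.050 for Reep3, and with the block -0.13 for A930033H14Rik. With 1 library left out the ranges crossed 0 for A930033H14Rik (-0.67 to 0.38), Arid5b (-0.38 to 0.064), Nrbf2 (-0.33 to 0.039), Palm (-0.43 to 0.501), Palm3 (-0.61 to 0.24), Reep3 (-0.056 to 0.69) and Rhobtb1 (-0.87 to 0.29). Among the genes named in the report the block ended the calls of Mdm2, Ccng1, Bax, Clspn, Mgmt, Def6 and Snap25, and added that of Dram1. The causes were not tested. Depth limits the LOH values of Palmd and Zfp365, which rest on 7 to 23 counts per library.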

Other observations

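The 17 genes that were at least 16-fold lower in the LOH mean, from a heterozygous mean of at least 5 CPM, are described here with a bound picked after the values were seen. Besides Palmd, Zfp365 and genes already described they include Timp3, an inhibitor of metalloproteinases, at 437.7 ± 61.5 CPM in the heterozygous and 16.9 ± 9.85 CPM in the LOH libraries (SD, n = 3 each). Gja1, the gap junction protein connexin 43, had 81.1 ± 5.08 and 4.46 ± 2.37 CPM (SD, n = 3 each), and Ambp, the precursor of a protease inhibitor and a lipocalin, 80.4 ± 15.4 and 2.83 ± 3.12 CPM (SD, n = 3 each). The transcription factor Sall1 had 16.7 ± 4.63 and 0.249 ± 0.349 CPM (SD, n = 3 each), and Onecut1, a factor of the developing pancreas and liver, 23.4 ± 16.5 and 1.13 ± 1.04 CPM (SD, n = 3 each). Grb10, an imprinted adaptor of growth factor receptors, had 11.9 ± 2.71 and 0.193 ± 0.243 CPM (SD, n = 3 each), and Dlc1, a GTPase-activating protein, 5.99 ± 3.3 and 0.336 ± 0.14 CPM (SD, n = 3 each). Of the 17, Xlr3a did not pass in edgeR (adjusted p 0.0836).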
